A study of Mus musculus with 6 samples.

Results

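The genes described here encode potassium channels and their accessory subunits, taken as every protein-coding mouse gene whose symbol begins with Kcn and sorted by the subfamily letter that follows. Of the 43629 genes counted in each heart, 94 met this rule, and the non-coding Kcnq1ot1 was not among them. Of these 94 members, 36 had enough reads to be tested among 13092 tested genes, and 58 did not. RNA-seq was done on left ventricles from 6 male CD-1 mice (an outbred stock) at 1 year of age, with 3 hearts in the vehicle group and 3 in the caffeine group. Their mothers had been injected intraperitoneally once daily with normal saline (vehicle) or with 20 mg/kg caffeine from embryonic day 6.5 to 9.5. A further label field ends the exposure at day 10.5. The dam and litter of each mouse are not given, so hearts of one litter cannot be told from independent litters, and p-values measure only the spread between these hearts. The comparison addresses whether exposure of the embryo to caffeine went with a different expression of potassium channel genes in the adult ventricle.

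Potassium channels let potassium leave the cardiomyocyte, which ends the action potential and holds the resting membrane potential. Voltage-gated channels carry the transient outward and delayed rectifier currents of repolarization, inward rectifiers set the resting potential, and 2-pore channels carry background currents. Further inward rectifiers open when ATP falls or when acetylcholine acts on its receptor. A channel is assembled from pore-forming subunits, often of several genes, and accessory subunits alter how it gates and how much of it reaches the membrane.

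Total counts ranged from 9228359 to 10483101 in vehicle hearts and from 7613011 to 9153997 in caffeine hearts, so that every caffeine total lay below every vehicle total. Levels are given as CPM, counts scaled to a common library size with TMM factors, and 3 counts corresponded to between 0.284 and 0.42 CPM. The label left ventricle was checked against cell type markers. Cardiomyocyte genes were abundant (Myh6 averaged 13779 CPM in vehicle and 11129 CPM in caffeine hearts). Of the 5 atrial markers checked, Myl7, Sln and Bmp10 were near 0, and Myl4 did not exceed 1.76 CPM in any heart. Nppa, also among them, was not near 0 and averaged 107 CPM in vehicle and 356 CPM in caffeine hearts. The tissue also held endothelium, mural cells, fibroblasts and macrophages. In such bulk tissue, fewer cells of a type and less RNA per cell cannot be told apart.

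By edgeR's quasi-likelihood test, no potassium channel gene passed the thresholds of the study (0 of 36, against 14 of the 13092 tested genes, 0.107%). These thresholds were an adjusted p under 0.05 and a fold change above 1.5. The adjusted p-values of the members ran from 0.130 to 0.998. Limma-voom also called 0 members, while edgeR's exact test (94 genes called, 0.718%) and DESeq2 (67 genes, 0.512%) each called 1, Kcnj14. The study, which does not name its edgeR test, also listed Kcnj14 as higher in caffeine hearts at its thresholds. The fold change it gave was larger than the 1.97-fold found here. Adding a block for replicate number, the quasi-likelihood test called 0 members (40 genes in all, 0.306%), and with no filter on low counts it called 3 of 78, Kcnc1, Kcnj12 and Kcnj14 (1.07% of 22407 genes). An unadjusted p under 0.05 was reached by 11 members (8.82% of all tested genes), of which 4 were higher (4.42%) and 7 lower (4.4%) in caffeine hearts. Limma-voom gave 11 members at this level (8.57% of all genes), the exact test 10 (7.89%) and DESeq2 10 (6.04%). The adjusted p-values given below are those of the filtered quasi-likelihood test unless another setting is named, and by that test the differences of the members all missed the threshold.

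In 12 of the 36 members the caffeine hearts lay entirely on one side of the vehicle hearts, against 14.2% of all tested genes. The caffeine hearts were lower in 8 of them (7.12% of all genes) and higher in 4 (7.11%). The 8 lower members were Kcnj2, Kcnj12, Kcnj3, Kcnj5, Kcnh2, Kcnd3, Kcnk1 and Kcna7, and the 4 higher ones were Kcnj14, Kcnj4, Kcnc1 and Kcnt2. Of these 12, 6 belong to the inward rectifier subfamily J. Over the 36 members the median log2 fold change was -0.18, with 24 members below 0 and 12 above, beside a median of 0.00088 and 49.8% below 0 over all tested genes. Fold changes above 1.5 were found upward in 4 members (Kcnj14, Kcnc1, Kcnip4 and Kcnt2), where 2.92% of all genes had them, and downward in none (1.64% of all genes), with Kcnj12 just short of it. The 4 upward members were low, at 13.6 CPM or less in any heart, and the groups of Kcnip4 overlapped. The split between upward and downward members depended on the scaling and on single hearts. With library size only, Kcnj12 (-0.67), Kcnj2 (-0.63) and Kcnk1 (-0.62) passed 1.5-fold downward and Kcnt2 (0.55) no longer passed it upward, and with 1 heart left out the lowest values of these 3 genes were -0.78, -0.66 and -0.73.

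**Figure D1:**
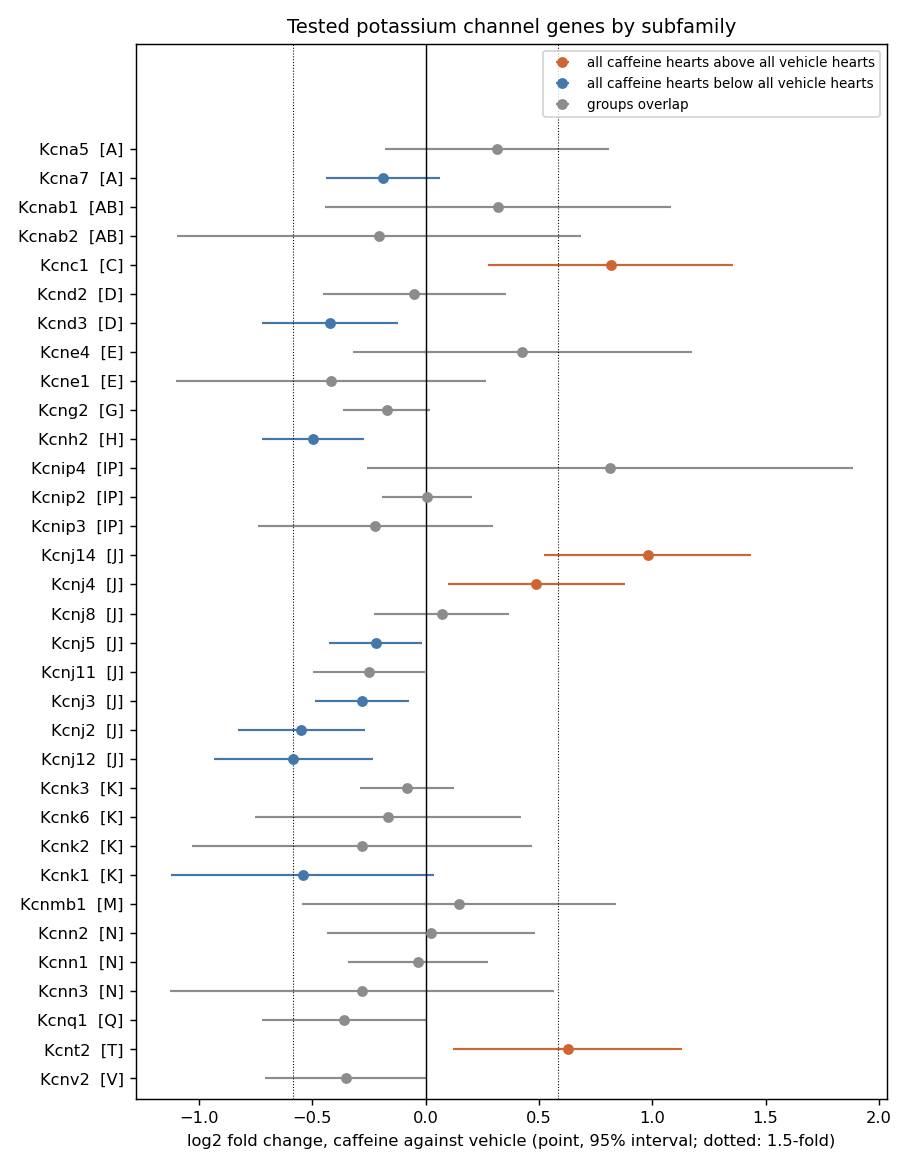
Log2 fold change of caffeine against vehicle hearts (x axis, points) with its 95% interval (lines) for 33 of the 36 tested members, ordered by subfamily letter, with dotted lines at 1.5-fold. Members whose caffeine hearts all lay below the vehicle hearts (blue) reach down to -0.58, those whose caffeine hearts all lay above (orange) reach 0.98, and the 21 plotted members with overlapping groups are grey.

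Subfamily J, the inward rectifiers, had 15 members, of which 8 were tested. Log2 fold changes were negative in 5 and positive in 3, and 7 of the 8 had an unadjusted p under 0.05 (8.82% of all tested genes). No other subfamily had more than 1 member at that level, but none of them had more than 4 tested members. Kcnh2 and Kcnt2, the only tested members of H and T, both reached it. The strong inward rectifiers of the Kir2 group are encoded by Kcnj2, Kcnj12, Kcnj4 and Kcnj14. All 4 had groups that did not overlap (14.2% of all tested genes). They lay on opposite sides, with Kcnj2 and Kcnj12 lower and Kcnj4 and Kcnj14 higher in the caffeine hearts.

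The sequences that code for the potassium-selective pore are shown to compare these subunits, each as 45 bases of coding sequence of the GENCODE M21 transcripts, 5′ to 3′ on the coding strand, with the 9 bases of the signature codons of the selectivity filter in capitals. On GRCm38 the windows lie at chr11:111072192-111072236 (plus strand) in Kcnj2, chr15:79485352-79485396 (minus) in Kcnj4 and chr7:45819618-45819662 (minus) in Kcnj14, all within coding exons. The windows of the ATP-sensitive subunits follow, from chr7:46099481-46099525 (minus) in Kcnj11 and chr6:142566433-142566477 (minus) in Kcnj8.
Kcnj2: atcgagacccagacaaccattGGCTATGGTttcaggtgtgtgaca
Kcnj4: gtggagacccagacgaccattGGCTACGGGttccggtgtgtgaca
Kcnj14: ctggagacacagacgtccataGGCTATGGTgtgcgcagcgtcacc
Kcnj11: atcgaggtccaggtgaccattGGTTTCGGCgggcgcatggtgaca
Kcnj8: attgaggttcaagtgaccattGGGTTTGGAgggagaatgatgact
Among the Kir2 windows shown, those of Kcnj2 and Kcnj4 were the most alike, with 86.7% identical bases, although these genes lay on opposite sides of the comparison. Kcnj14 shared 68.9% with Kcnj2 and 71.1% with Kcnj4. None of the exonic 75-base words (the read length) of Kcnj2, Kcnj12 or Kcnj4 occurred in another gene, so that whole reads of these genes were distinct.

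Kcnj2 (ENSMUSG00000041695, chr11:111066164-111076821, GRCm38) measured 82.4, 98.8 and 69.6 CPM in the vehicle hearts and 60.8, 52.1 and 58.8 CPM in the caffeine hearts. All caffeine hearts lay below all vehicle hearts. The means were 83.6 ± 14.6 and 57.2 ± 4.50 CPM (SD, n = 3), a log2 fold change of -0.55 with a standard error of 0.13 (edgeR adjusted p = 0.189). By edgeR's exact test, by DESeq2 and without a filter the adjusted p was 0.0236, 0.0271 and 8.7e-05, with a fold change below 1.5 in each. Kcnj12 (ENSMUSG00000042529, chr11:61022564-61071131), which encodes a partner of the Kcnj2 protein in mixed channels, measured 48.0, 55.5 and 47.1 CPM in vehicle and 42.3, 33.1 and 25.4 CPM in caffeine hearts. The groups were again apart, though the caffeine hearts were spread widely. The log2 fold change was -0.58 with a standard error of 0.16 (adjusted p = 0.269), and it ranged from -0.78 to -0.42 with 1 heart left out.

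Kcnj14 (ENSMUSG00000058743, chr7:45816460-45824782) was the member with the highest fold change. It measured 4.40, 6.91 and 5.67 CPM in vehicle and 13.6, 10.4 and 9.73 CPM in caffeine hearts. The lowest caffeine heart was above the highest vehicle heart, and the means differed 1.97-fold (log2 fold change 0.98, standard error 0.21, adjusted p = 0.135). The adjusted p was 0.00396 by edgeR's exact test and 0.0308 by DESeq2. Of its exonic 75-base words, 24.6% also occur in Gm5522, a processed pseudogene at chr1:10805281-10806522, whose own counts were 1, 2 and 1 in vehicle and 1, 6 and 6 in caffeine hearts, so the reads of this copy cannot be told apart from those of Kcnj14 over that stretch. Kcnj4 (ENSMUSG00000044216, chr15:79483714-79505241) measured 6.15, 8.52 and 6.38 CPM in vehicle and 10.8, 9.48 and 9.38 CPM in caffeine hearts. These groups were also apart, by less, with a log2 fold change of 0.49 and a standard error of 0.18 (adjusted p = 0.422).

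To set the 4 genes on one scale, levels were divided by the length of their annotated exons. Kcnj12 and Kcnj2 were then the highest (15.2 ± 3.97 and 12.9 ± 3.19 CPM per kilobase over the 6 hearts), and Kcnj4 and Kcnj14 were lower (3.93 ± 0.85 and 3.11 ± 1.26). Kcnj4 and Kcnj14 together made up 12.1, 14.5 and 14.5% of the summed level of the group in vehicle hearts and 27.4, 27.6 and 28.4% in caffeine hearts, means of 13.7 ± 1.38% and 27.8 ± 0.53% (SD, n = 3). This ratio was formed after the values of the 4 genes were seen and is given without a test. It describes RNA of bulk tissue and not the channels of a single cell type. Without division by length the shares were 8.65 ± 1.01% and 18.8 ± 0.31%. The summed level of the 4 genes was 38.9 ± 5.19 CPM per kilobase in vehicle and 31.5 ± 4.50 in caffeine hearts, and the hearts of the groups overlapped.

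**Figure D2:**
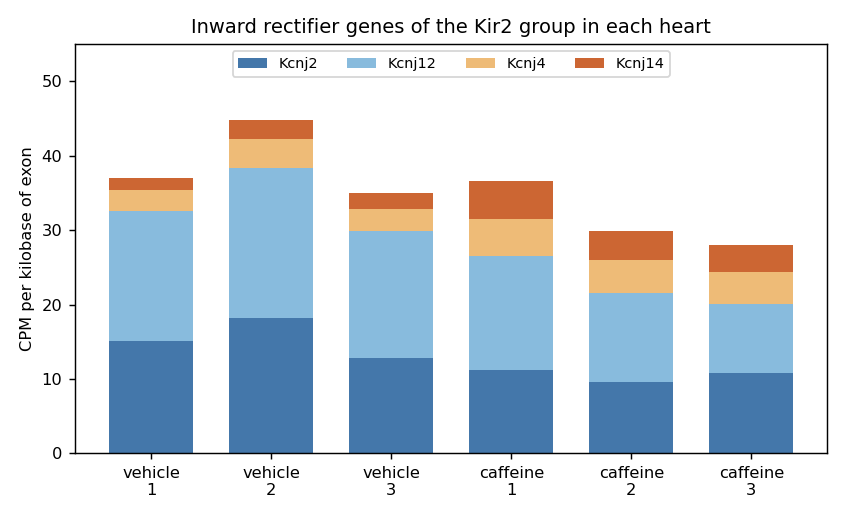
Level of the 4 Kir2 genes in each heart (y axis, CPM per kilobase of exon), stacked for vehicle hearts 1 to 3 and caffeine hearts 1 to 3. Kcnj4 and Kcnj14 take up between 12.1 and 14.5% of the stack in vehicle hearts and between 27.4 and 28.4% in caffeine hearts, while the height of the stacks overlaps.

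The promoters of Kcnj2 and Kcnj4, whose pore windows were alike and whose levels differed in opposite directions, are shown as given by RefSeq on GRCm38.p6, from 250 bases before to 50 bases after the start of the gene, at chr11:111065914-111066213 (plus strand) and chr15:79505192-79505491 (minus strand). Capitals mark matches, on either strand, to the searched motifs, which were the TATA box TATAAA, the CCAAT box CCAAT, the GC box GGGCGG, the GATA motif GATAA, the E-box CANNTG and the CArG box, and overlapping matches of different motifs were counted separately.
Kcnj2: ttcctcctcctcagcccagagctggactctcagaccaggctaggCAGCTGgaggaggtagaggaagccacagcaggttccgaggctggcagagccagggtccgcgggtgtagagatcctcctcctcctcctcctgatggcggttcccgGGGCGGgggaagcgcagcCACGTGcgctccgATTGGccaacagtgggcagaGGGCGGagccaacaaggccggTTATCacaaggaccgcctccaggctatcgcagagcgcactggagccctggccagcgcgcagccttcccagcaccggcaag
Kcnj4: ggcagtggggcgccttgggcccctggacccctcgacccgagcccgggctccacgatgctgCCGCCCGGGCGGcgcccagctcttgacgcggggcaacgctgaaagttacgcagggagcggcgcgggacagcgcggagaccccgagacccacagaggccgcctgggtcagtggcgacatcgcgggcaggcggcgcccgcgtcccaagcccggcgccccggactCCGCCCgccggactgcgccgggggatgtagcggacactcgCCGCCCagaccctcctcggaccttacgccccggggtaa
The Kcnj2 window held 2 GC boxes, 1 CCAAT box, 1 GATA motif and 2 E-boxes, and the Kcnj4 window held 4 GC boxes and no match to the other motifs. Of the 36 tested members, 24 had a promoter in the table (35 promoters in all). GC boxes occurred in 40.0% of these and in 35.7% of the 32841 promoters of all genes, CCAAT boxes in 31.4 and 37.4%, GATA motifs in 14.3 and 25.4%, E-boxes in 80.0 and 72.3%, TATA boxes in 2.86 and 13.6%, and CArG boxes in 0 and 1.63%. A match is a description of the letters and does not show a binding site.

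The acetylcholine-activated channel, through which the vagus slows the heart, is built from the products of Kcnj3 and Kcnj5. Kcnj3 measured 51.5, 48.3 and 45.2 CPM in vehicle and 40.7, 38.8 and 39.8 CPM in caffeine hearts (log2 fold change -0.28, standard error 0.09, edgeR adjusted p = 0.371). Kcnj5 measured 85.4, 80.3 and 72.3 CPM in vehicle and 69.6, 64.2 and 70.5 CPM in caffeine hearts (-0.22, standard error 0.09, adjusted p = 0.546). Both subunits lay lower in every caffeine heart than in any vehicle heart, by a small margin for Kcnj5. Of the 75-base words of Kcnj3, 28.3% also lie in Gm26794, a lincRNA on the opposite strand (counts of 11, 14 and 14 in vehicle and 11, 8 and 7 in caffeine hearts), and whether the counting used strand is not given in the sources used here.

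The ATP-sensitive channel, which couples the metabolic state of the cell to its excitability, combines a Kcnj11 or Kcnj8 subunit with a sulphonylurea receptor. Kcnj11 had 90.2, 74.8 and 74.3 CPM in vehicle and 61.6, 75.3 and 63.9 CPM in caffeine hearts, with a log2 fold change of -0.25 and a standard error of 0.11 (adjusted p = 0.561). Its groups overlapped through the second caffeine heart, and without the first vehicle heart the value was -0.15. Kcnj8, typical of vascular mural cells, averaged 30.4 ± 2.02 and 32.0 ± 5.77 CPM, and the 95% interval of its log2 fold change ran from -0.23 to 0.37. The receptor genes Abcc9 (285 ± 13.2 CPM in vehicle, 292 ± 54.7 in caffeine hearts) and Abcc8 (37.4 ± 7.74 and 34.9 ± 2.34) had overlapping groups.

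**Figure D3:**
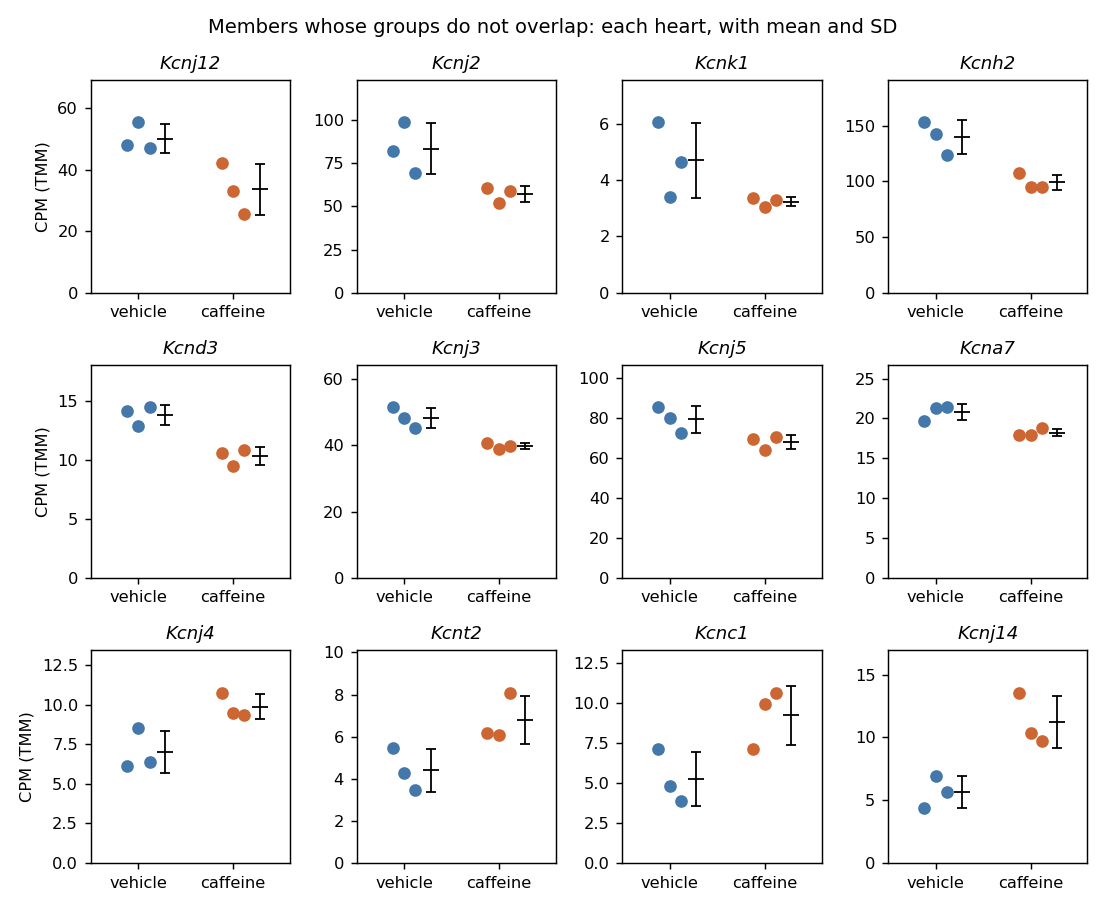
CPM (y axis, each panel from 0) in the individual vehicle hearts (blue) and caffeine hearts (orange) for the 12 members whose groups did not overlap, with the mean and SD of each group (n = 3). The panels are ordered by log2 fold change from Kcnj12 (-0.58) to Kcnj14 (0.98), and Kcnk1 and Kcnc1 have a caffeine heart next to a vehicle heart.

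Among the delayed rectifiers, which end the plateau of the action potential in large mammals, Kcnh2 encodes the pore of the rapid current and Kcnq1 that of the slow current. Kcnh2 (ENSMUSG00000038319, chr5:24319589-24351604) measured 153, 143 and 123 CPM in vehicle and 107, 95.4 and 94.6 CPM in caffeine hearts. Its groups were well apart, and its adjusted p was the lowest of all members. Means of 140 ± 15 and 99.1 ± 7.07 CPM gave a log2 fold change of -0.50 with a standard error of 0.10 (edgeR adjusted p = 0.130), and leaving out any 1 heart gave values from -0.58 to -0.43. The adjusted p was 0.00752 by edgeR's exact test, 0.00885 by DESeq2, 0.0309 with library size only and 0.000227 without a filter, and in these fits Kcnh2 was not called because its fold change stayed below 1.5. It was the only tested member among the 8 genes of subfamily H.

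Kcnq1 measured 43.1, 41.5 and 29.4 CPM in vehicle and 30.8, 24.3 and 33.9 CPM in caffeine hearts. Its groups overlapped through the third vehicle heart, and the interval of its log2 fold change of -0.36 reached from -0.72 to 0.00. A part of its exons lies opposite the non-coding Kcnq1ot1, with which it shares 1.34% of its 75-base words. Kcne1, the accessory subunit of the slow current, was low, at 2.71 ± 0.23 and 2.05 ± 0.77 CPM (-0.42, from -1.10 to 0.26), and Kcne4, an inhibitory subunit, averaged 2.15 ± 0.31 and 2.89 ± 1.17 CPM (0.43, from -0.32 to 1.17).

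The fast transient outward current, which dominates early repolarization in the mouse ventricle, is carried by the products of Kcnd2 and Kcnd3 together with the accessory subunit encoded by Kcnip2. Kcnd3 measured 14.2, 12.9 and 14.5 CPM in vehicle and 10.6, 9.48 and 10.9 CPM in caffeine hearts. Every caffeine heart lay below every vehicle heart (log2 fold change -0.42, standard error 0.14, edgeR adjusted p = 0.351). Kcnd2, the more abundant of the pair per kilobase (5.30 against 1.26 CPM per kilobase), had 37.1, 24.8 and 21.4 CPM in vehicle and 28.4, 24.5 and 27.7 CPM in caffeine hearts. The groups of Kcnd2 overlapped, and its interval ran from -0.45 to 0.35. Kcnip2 was nearly level between the groups, with 332, 308 and 344 CPM in vehicle and 350, 299 and 339 CPM in caffeine hearts, a log2 fold change of 0.01 and an interval from -0.19 to 0.20. Kcnip3 and Kcnip4, of the same family of calcium-binding subunits, were low (at most 3.71 CPM in any heart), and Kcnip4 had the widest standard error of the members, 0.49.

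Kcna5 encodes a pore of the slowly inactivating voltage-gated current of the mouse ventricle. It measured 29.4, 14.9 and 22.0 CPM in vehicle and 21.1, 31.5 and 29.4 CPM in caffeine hearts. Its groups overlapped, with a log2 fold change of 0.32 (interval -0.18 to 0.81) that became 0.094 without the second vehicle heart. Kcna7, a voltage-gated subunit of heart and skeletal muscle, had 19.6, 21.3 and 21.4 CPM in vehicle and 17.9, 17.9 and 18.8 CPM in caffeine hearts. Its groups did not overlap, but the difference was small (-0.19, standard error 0.11, adjusted p = 0.681).

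Kcnc1, which encodes a rapidly closing channel best known from fast-spiking neurons, measured 7.13, 4.83 and 3.85 CPM in vehicle and 7.14, 9.93 and 10.7 CPM in caffeine hearts. The first vehicle heart and the first caffeine heart were nearly equal, and the remaining hearts stood further apart. The log2 fold change was 0.82 with a standard error of 0.24 (edgeR adjusted p = 0.317). Silent subunits, which form no channel alone but modify other voltage-gated channels, were represented by Kcng2 and Kcnv2. Kcng2 measured 294, 308 and 265 CPM in vehicle and 255, 247 and 267 CPM in caffeine hearts, groups that overlapped by one heart (-0.17, from -0.36 to 0.02). Kcnv2 averaged 19.2 ± 4.02 and 15.1 ± 0.82 CPM (-0.35, from -0.71 to 0.01, and between -0.51 and -0.22 with 1 heart left out). The cytoplasmic beta subunits Kcnab1 and Kcnab2 did not exceed 3.05 CPM in any heart.

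Among the 2-pore channels of subfamily K, which pass background current at rest, 4 of 14 members were tested and all 4 had negative log2 fold changes. Kcnk3, the acid-sensitive background channel, was the most abundant of the Kcn genes. It measured 636, 722 and 602 CPM in vehicle and 656, 612 and 584 CPM in caffeine hearts. Its groups overlapped, and the interval of -0.29 to 0.12 around a log2 fold change of -0.08 did not reach the values of Kcnh2, Kcnj2 or Kcnj12. Kcnk1 measured 6.06, 3.41 and 4.66 CPM in vehicle and 3.36, 3.05 and 3.28 CPM in caffeine hearts. The groups of Kcnk1 were separated by a narrow gap (-0.54, standard error 0.26, edgeR adjusted p = 0.599), and without the first vehicle heart the log2 fold change was -0.32. Kcnk2, a channel opened by stretch, and Kcnk6 were at 2.52 ± 0.99 against 2.09 ± 0.28 CPM and 6.25 ± 2.17 against 5.53 ± 0.79 CPM, with overlapping groups.

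Of the channels gated by intracellular ions, the small-conductance calcium-activated genes Kcnn1, Kcnn2 and Kcnn3 were tested. Kcnn1 averaged 16.4 ± 0.85 and 16.0 ± 2.43 CPM (log2 fold change -0.04, interval -0.34 to 0.27), Kcnn2 7.32 ± 1.81 and 7.43 ± 0.71 CPM (0.02, -0.43 to 0.48), and Kcnn3 1.34 ± 0.47 and 1.10 ± 0.27 CPM (-0.28, -1.13 to 0.57). All 3 had overlapping groups. Kcnmb1, the beta subunit that tunes the large-conductance channel of smooth muscle, was at 2.12 ± 0.62 and 2.33 ± 0.50 CPM, whereas Kcnma1, which encodes the pore of that channel, was too low to be tested. Kcnt2, a sodium-activated channel, measured 5.47, 4.26 and 3.44 CPM in vehicle and 6.16, 6.10 and 8.09 CPM in caffeine hearts. Its groups did not overlap (0.63, standard error 0.23, edgeR adjusted p = 0.422).

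Per kilobase of exon, 3 genes stood above all other members, Kcnk3 (160 ± 12.5 CPM per kilobase over the 6 hearts), Kcnip2 (94.5 ± 5.82) and Kcng2 (91.2 ± 7.85). The order of Kcnip2 and Kcng2 was within their spread. Kcnh2 followed at 24.7 ± 5.09, then Kcnj11 (19.9 ± 2.77), Kcnj5 (15.7 ± 1.65), Kcnj12 (15.2 ± 3.97) and Kcnj2 (12.9 ± 3.19). The spreads of neighbours in this series overlapped, but Kcnj11 lay above Kcnj5 in each of the 6 hearts. The order differed between the groups, since Kcnj12 (18.2) lay above Kcnj5 (16.9) in vehicle hearts, and Kcnj8 (12.6) lay above Kcnj12 (12.2) and Kcnj2 (10.5) in caffeine hearts. The 3 leading genes together held 60.0, 62.3 and 62.7% of all Kcn CPM in vehicle and 64.7, 64.3 and 64.2% in caffeine hearts. This share was higher in every caffeine heart than in any vehicle heart and was not tested. Taken singly, all 3 genes had overlapping groups. The 94 members summed to 2101, 2147 and 1932 CPM in vehicle and 1946, 1801 and 1854 CPM in caffeine hearts, which overlapped. As a share of all counts, without TMM factors, this was 0.205, 0.223 and 0.207% in vehicle and 0.183, 0.174 and 0.186% in caffeine hearts. On that scale every caffeine heart lay below every vehicle heart, so the overlap depended on the scaling.

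**Figure D4:**
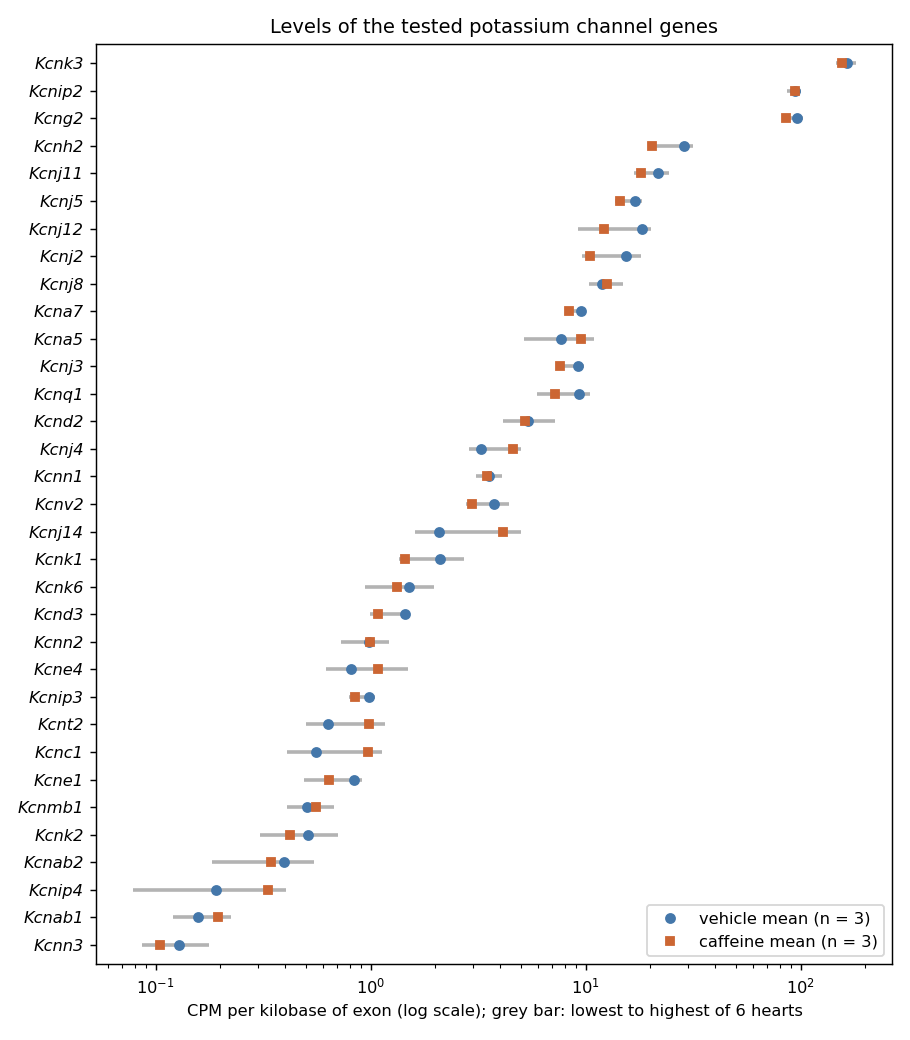
Mean level of tested members in vehicle hearts (blue circles) and caffeine hearts (orange squares), in CPM per kilobase of exon on a log axis, with grey bars from the lowest to the highest of the 6 hearts. Kcnk3, Kcnip2 and Kcng2 lie above 80 CPM per kilobase in every heart, and the levels plotted, of 33 of the 36 tested members, reach down to that of Kcnn3 (0.117 on average).

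The 58 members that were not tested comprised 16 with no read in any heart, among them Kcne2, Kcnf1 and Kcnb2, and 42 with reads in some or all hearts. Their totals over the 6 hearts had a median of 4 and reached 53 (Kcnh7). For Kcna4, which encodes the slow transient outward channel, the counts were 7, 4 and 12 in vehicle and 3, 2 and 4 in caffeine hearts, and for Kcne3, an accessory subunit, they were 4, 4 and 4 against 0, 3 and 6. Further subfamily leaders that stayed untested were Kcns3 (28 counts in all), Kcnrg (10) and Kcnu1 (2), and so did Kcnn4 (10).

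Partner genes of these channels outside the Kcn name were listed by role. The roles included receptor and scaffold proteins, pacemaker channels, intracellular membrane potassium channels, the sodium-potassium pump and transcription factors. Tmem38a, of the intracellular membrane potassium channels, averaged 837 CPM in vehicle and 840 CPM in caffeine hearts, above Kcnk3. Of 41 listed genes 34 were tested, 0 were called by edgeR's quasi-likelihood test, 6 had an unadjusted p under 0.05 (8.82% of all tested genes), and the median log2 fold change was -0.08. Groups did not overlap in 9 (14.2% of all tested genes), of which 8 were lower in caffeine hearts (7.12% of all genes), namely Hcn2, Hcn4, Ank3, Irx3, Hey2, Rest, Tbx5 and Foxo1, and 1 was higher (7.11%). Hcn4, a pacemaker channel, measured 15.5, 15.9 and 9.83 CPM in vehicle and 7.42, 6.10 and 5.51 CPM in caffeine hearts (-1.12, standard error 0.21, adjusted p = 0.102). It was called by the exact test, by DESeq2 and in the fit with replicate number as a block. Tbx5, a transcription factor of cardiac conduction, measured 31.8, 39.5 and 30.7 CPM in vehicle and 22.8, 22.7 and 25.1 CPM in caffeine hearts (-0.53, standard error 0.12, adjusted p = 0.193).

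Values of cell type markers are given beside those of the channel genes. Of 6 conduction cell markers 5 were tested and all 5 had negative log2 fold changes, with a summed level between 74.5 and 102 CPM in vehicle and between 47.3 and 55.2 CPM in caffeine hearts and none at 0 in all hearts. Besides Hcn4, the list held Cntn2 (-3.12, edgeR adjusted p = 0.058) and Cacna1g (-1.29, adjusted p = 0.135), while Tbx3 (-0.19, adjusted p = 0.882) and Gja5 (-0.05, adjusted p = 0.964) had overlapping groups. Fibroblast markers summed to between 676 and 779 CPM in vehicle and between 823 and 967 CPM in caffeine hearts (5 of 5 positive), and macrophage markers to between 154 and 249 and between 190 and 371 CPM (5 of 5 positive, with overlapping sums). By edgeR's quasi-likelihood test, no marker of these 3 lists was called. The exact test called Hcn4, Cntn2, Cacna1g and the macrophage marker Adgre1, and DESeq2 called Hcn4, Cntn2 and Cacna1g. The changed genes of the study included Cntn2 and the macrophage markers C1qa and Lyz2. Ventricular, endothelial and mural cell markers had overlapping sums, and 0 of the 7, 5 and 7 genes of these lists were called. Nppa, a gene of atrial and stressed ventricular myocytes, averaged 107 CPM in vehicle and 356 CPM in caffeine hearts (1.73, adjusted p = 0.125), and the skeletal actin gene Acta1 was called (943 against 2714 CPM, 1.53, adjusted p = 0.00296) while the skeletal myosins Myh1 and Myh4 were at 0. The part of these cell types in the differences of the potassium channel genes was not tested.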

How the data were processed

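The deposited values are raw counts per Ensembl gene. The authors cleaned single-end reads with FastQC, mapped them to mm10 (GRCm38) with TopHat2 and counted them with HTSeq on Ensembl release 79. Tool versions and the strand setting are not given in the sources used here. Reads of overlapping genes on opposite strands may therefore not have been told apart. Replicates were not pooled.

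Computed from the counts, with treatments taken from the sample labels, were fits of all 6 hearts in R 4.3.3 with edgeR 4.0.16. Genes passed filterByExpr (minimum count 10, minimum total 15), were scaled by TMM and tested with glmQLFit and glmQLFTest, treatment being the only term. Genes with a Benjamini-Hochberg adjusted p under 0.05 over all 13092 genes and a fold change above 1.5 were called, as in the study, which names edgeR but not its test. The biological coefficient of variation was 12.1%. Standard errors and 95% intervals belong to the log2 fold changes. An exact permutation test over the 20 labelings cannot give a p below 0.1, the value of each of the 12 members without overlap.

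Symbols, positions and exon lengths came from GENCODE M21 by Ensembl identifier, and 1167 identifiers had no symbol. Shared reads were looked for as exonic words of 75 bases. Named were members that were called or had groups without overlap, the known cardiac potassium current genes with Kcnj14, the leader of each subfamily per kilobase, and the 5 highest and 5 lowest log2 fold changes. Kcnab1 and Kcnip3, and Kcnh7 and Kcnb2 of those not tested, were named after their values were seen. Results of some genes and 1 sequence are not reported here. The members and lists were chosen with earlier results of these data known.

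Alternatives were other size factors, other filters, the replicate number as a block, each heart left out, no fold threshold, and the edgeR exact test, DESeq2 1.42.0 and limma 3.58.1 (voom). Replicates of a group differed by more than sampling noise (chi-square per degree of freedom 5.66 to 15.1). The deviations of hearts with the same number had r of 0.045, -0.030 and -0.038. With so few hearts a group these values cannot decide whether the numbers pair hearts, which the labels do not give. On simulated data, recovery meant an adjusted p under 0.05 without a fold threshold. It was reached by 35 of 67 genes set to 1.5-fold, 53 of 67 set to 2-fold and 66 of 66 set to 3-fold. Among the unchanged genes there were 15 false calls, which also needed a fold change above 1.5. The adjusted p depends on how many changes were set, so these rates need not hold for the members. Figures were drawn with Python 3.11.15 and Matplotlib 3.10.9. Pathway enrichment, qPCR and echocardiography of the study were not analysed here.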

Additional observations from a re-analysis of the deposited data

How the results depend on the processing

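The number of members called, 0, became 3 of 78 without a filter (Kcnc1 0.80, Kcnj12 -0.61 and Kcnj14 0.96 on the log2 scale; 240 of 22407 genes called, 1.07%) and 1, Kcnj14, by edgeR's exact test (0.98) and by DESeq2 (0.99). It was 0 under the other settings, each left-out heart included (0 to 0). The median over the members, -0.18, was -0.27 with library size only, a scaling that moved the median of all genes to -0.08, and -0.11 without a filter, where 78 members were tested, and ran from -0.21 to -0.081 with 1 heart left out, lowest without caffeine heart 3 and nearest 0 without vehicle heart 2. The left-out fits tested 37 to 40 members. Over the same 36 members the median was -0.20 without a filter and -0.12 without vehicle heart 2. Library size only also moved the split of members from 24 lower and 12 higher to 27 and 9. The 12 members without overlap had no reversal, which their choice largely fixes. Signs reversed for members near 0, for Kcnip2 (-0.080), Kcnj8 (-0.017) and Kcnn2 (-0.066) with library size only and for Kcnip2 (-0.015) without a filter. Leaving out 1 heart gave ranges across 0 for Kcnab2 (-0.73 to 0.11), Kcnd2 (-0.21 to 0.22), Kcnip2 (-0.040 to 0.070), Kcnj8 (-0.065 to 0.19), Kcnk2 (-0.54 to 0.032), Kcnk6 (-0.41 to 0.073), Kcnmb1 (-0.016 to 0.41), Kcnn1 (-0.17 to 0.047), Kcnn2 (-0.15 to 0.21) and Kcnn3 (-0.50 to 0.028). The cause of these shifts was not tested.

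Partner genes called, 0, became 1 (Hcn4) with library size only, without a filter, with the replicate block, by the exact test and by DESeq2, and 0 to 1 with 1 heart left out (1 without vehicle heart 3). Their median, -0.08, was -0.17 with library size only, -0.12 without a filter and from -0.093 to -0.047 with 1 heart left out. Cell type markers called, 1 (Acta1), became 3 with library size only, 6 without a filter, 4 with the replicate block, 6 by the exact test, 4 by DESeq2 and 1 to 4 with 1 heart left out (2 without vehicle heart 1, 4 without vehicle heart 3). With the replicate number as a block 0 members were called, and the median over the members was -0.18. The block raised all calls from 14 to 40, and whether the numbers pair the hearts is not known. The share of the Kir2 level held by Kcnj4 and Kcnj14 without division by length, 8.65% in vehicle and 18.8% in caffeine hearts, was added after seeing the data. With 3 hearts a group and at most 10483101 counts a heart, members below about 3 CPM had standard errors of up to 0.49. On simulated data, 35 of 67 better counted genes set to 1.5-fold reached an adjusted p under 0.05, without a fold threshold. That rate need not hold for the members.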
